A study of Mus musculus with 6 samples.

Results

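Integrins, laminins and other adhesive matrix proteins were examined in wild-type (WT) mouse embryonic fibroblasts (MEFs) depleted of the mitochondrial protease YME1L. Members were chosen by a rule on gene names, set with earlier results of these data known. They are all genes named as integrin alpha or beta chains, laminin chains, thrombospondins or syndecans, together with *Fn1*, *Vtn*, *Tnc*, *Tnxb*, *Nid1*, *Nid2*, *Hspg2* and *Postn*. The rule found 55 genes at 55 of the 51499 loci of the count table. They comprise 18 integrin alpha genes, 10 integrin beta genes, 11 laminin chains, 4 thrombospondins, 4 syndecans and 8 other matrix proteins.

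The comparison asked how the transcriptome of MEFs changes when YME1L is depleted by RNA interference. Poly(A) RNA was sequenced from 3 cultures transfected with a scrambled control siRNA (Scr) and 3 transfected with Yme1l siRNA, all collected 72 h after transfection. Both groups were the same WT MEF line and differ only in the siRNA. The labels call the cells 3T3 immortalized, whereas the study's methods describe immortalization with SV40 large T antigen of cells from *Yme1l* loxP/loxP animals and expansion of single clones, so the line may be 1 clone. *Yme1l1*, the targeted gene, fell from 171 ± 0.425 CPM to 33.4 ± 10.9 CPM (SD, n = 3 libraries each), a log2 fold change of -2.36 (SE 0.20, edgeR's quasi-likelihood test, adjusted p = 3.87e-05).

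Integrins are transmembrane receptors built from an alpha and a beta chain, and they connect the extracellular matrix to the actin cytoskeleton through talin, kindlin and other proteins of the adhesion complex. The pairing of chains sets the ligand: fibronectin and vitronectin through an RGD motif, collagens, or laminins. Laminins are cross-shaped trimers of an alpha, a beta and a gamma chain, which polymerize in basement membranes and are linked to the collagen IV network by nidogens and perlecan. Fibroblasts in culture lay down a fibronectin-rich matrix and attach to it mostly through the integrin of the alpha5 and beta1 chains, while syndecans act as co-receptors that bind the heparin-binding part of fibronectin.

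The 6 libraries held between 37260605 and 45205207 counts. Levels are given as CPM, which are counts scaled by library size after adjustment with TMM factors, and levels of different genes are compared only as CPM per kilobase (kb) of annotated exon. Of the 10 fibroblast markers, 8 passed the filter on low counts, 7 fell and none rose, and their summed level was 25254 to 32336 CPM with Scr and 14606 to 17539 CPM with Yme1l siRNA. *Thy1*, a defining surface marker of many fibroblasts, had 2 counts in all 6 libraries and *Lum* had 43. Summed markers of epithelial cells stayed at or below 1.33 CPM and those of endothelial cells at or below 7.85 CPM, both higher with Yme1l siRNA. The leukocyte list summed to 110 to 135 CPM with Scr and 184 to 223 CPM with Yme1l siRNA. It consisted almost wholly of *Csf1r*, which rose (log2 fold change 0.74, adjusted p = 0.000431, edgeR). The platelet list summed to 148 to 168 CPM with Scr and 57.1 to 76.0 CPM with Yme1l siRNA. It consisted mostly of *Gp1bb*, which fell (-1.45, adjusted p = 1.62e-05, edgeR). *Ppbp*, at 3.08 to 8.37 CPM with Scr and 7.45 to 12.5 CPM with Yme1l siRNA, was not called, nor was *Lyz2*, with 296 counts. *Ptprc* had 3 counts, *Adgre1* 0 and *Pf4* 6. The part of these shifts in the changes of adhesion genes was not tested. In bulk RNA, fewer cells of a type and less RNA per cell cannot be told apart. The libraries of a group are independent cultures according to the study, but no source says that equal replicate numbers share a day.

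Adhesion genes changed in both directions after depletion of YME1L. Of the 46 members that passed the filter on low counts, 13 rose and 19 fell at an adjusted p under 0.05, and 14 were not called, at log2 fold changes from -0.99 to 0.25. These 32 are 69.6% of the members tested, against 58.0% of all 14499 loci tested, of which 28.4% rose and 29.6% fell. A change of at least 2-fold was called for 18 members, 11 higher and 7 lower, whereas 15.5% of all loci tested passed the same limits. These counts include 6 members (*Itga4*, *Itga8*, *Itga9*, *Itgax*, *Lama2* and *Lama3*) that reached the count limit in all libraries of only 1 group, so that their passing the filter was tied to a difference. Among the other 40, 10 rose, 16 fell and 12 changed by at least 2-fold, counts made after seeing the data. Among members with a mean of at least 1 CPM, 12 of 39 (30.8%) passed those limits, against 1569 of 12322 loci (12.7%). The libraries of the groups did not overlap for 31 of the 46 members, 12 higher and 19 lower, against 65.4% of all loci. The median log2 fold change of the members was -0.06 and that of all loci 0.01, while the median absolute log2 fold change was 0.85 for members and 0.42 for all loci. The sign of the members' median is not firm, since it was 0.02 without Yme1l siRNA replicate 3.

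By family, integrin alpha genes had 5 higher and 6 lower of 14 tested, integrin beta genes 2 higher and 4 lower of 8, and laminin chains 6 higher and 3 lower of 10. The shares called were 78.6%, 75% and 90%, against 58.0% of all loci tested. These counts include the 6 members whose passing the filter was tied to a difference. *Itga4*, *Lama2* and *Lama3* are among those higher, and *Itga8*, *Itga9* and *Itgax* among those lower. The other matrix proteins had 4 lower and none higher of 7 tested, and the syndecans 2 lower and none higher of 4. Their shares called, 57.1% and 50%, were not above the 58.0% of all loci tested. None of the 3 thrombospondins tested was called, also at an unadjusted p under 0.05. The 6 members that reached the count limit in all libraries of 1 group only are described by their counts and fitted fold changes below, with no p. The 9 members that were not tested were *Itgad*, *Itgae*, *Itgal*, *Itgam*, *Itgb2l*, *Itgb6*, *Lama1*, *Vtn* and *Thbs4*, each with at most 13 counts in any library. *Vtn*, which encodes vitronectin, had 3 counts in total over the 6 libraries.

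**Figure D1:**
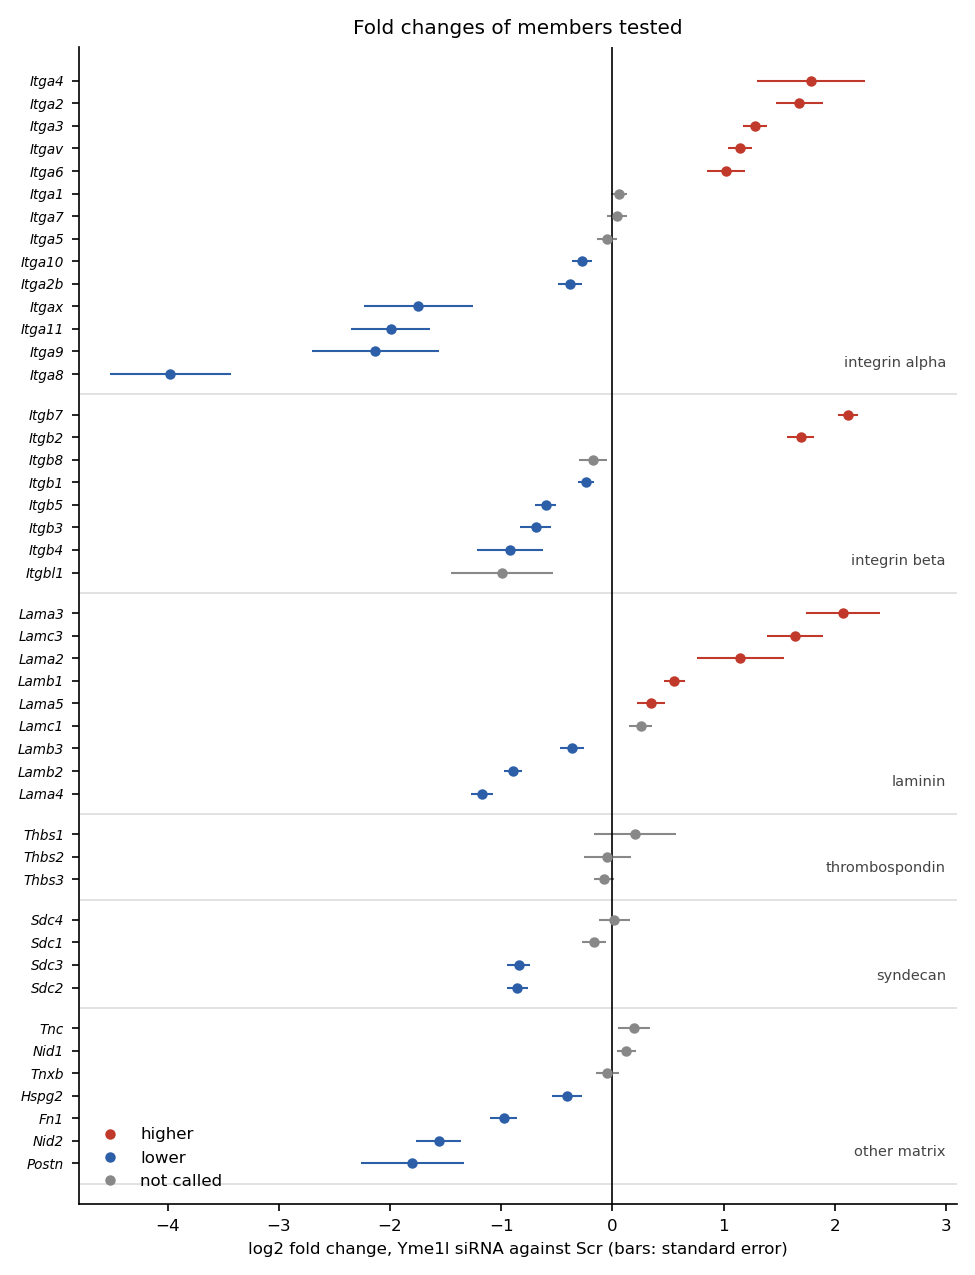
Log2 fold change of Yme1l siRNA against Scr for members tested, grouped by family, with bars for the standard error and colours for the call (edgeR, adjusted p under 0.05; n = 3 libraries each). Integrin and laminin genes spread to both sides of 0, from -3.98 for *Itga8* to 2.12 for *Itgb7*, whereas the called syndecans and other matrix proteins all lie below 0.

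Promoter sequences are shown for the members that the results below turn on: the 3 integrin genes that rose most firmly at over 50 CPM, the most abundant integrin alpha gene that fell, and the pair of laminin beta chains that moved in opposite directions. They are the 250 bases before the start of each gene in RefSeq (GRCm38.p6), written 5′ to 3′ on the gene's strand, and capitals mark matches to the motifs named after them. *Itgb7* has chr15:102231936-102232185 on the minus strand, *Itgav* chr2:83724147-83724396 on the plus strand and *Itga3* chr11:95076715-95076964 on the minus strand. *Itga11* has chr9:62677605-62677854, *Lamb1* chr12:31265043-31265292 and *Lamb2* chr9:108479612-108479861, all on the plus strand. Apart from *Itgav*, the start of each of these genes in GENCODE M21 lies further upstream, within the window.
Itgb7: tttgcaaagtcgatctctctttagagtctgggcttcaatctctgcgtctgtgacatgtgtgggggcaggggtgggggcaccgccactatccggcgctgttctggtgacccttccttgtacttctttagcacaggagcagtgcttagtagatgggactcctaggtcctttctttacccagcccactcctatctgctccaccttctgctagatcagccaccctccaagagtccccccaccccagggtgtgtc
Itgav: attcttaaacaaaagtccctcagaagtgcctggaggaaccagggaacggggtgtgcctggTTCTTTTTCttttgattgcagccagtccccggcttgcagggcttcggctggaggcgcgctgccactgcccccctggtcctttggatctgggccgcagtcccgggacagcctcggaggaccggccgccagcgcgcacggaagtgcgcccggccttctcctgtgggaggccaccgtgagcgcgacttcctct
Itga3: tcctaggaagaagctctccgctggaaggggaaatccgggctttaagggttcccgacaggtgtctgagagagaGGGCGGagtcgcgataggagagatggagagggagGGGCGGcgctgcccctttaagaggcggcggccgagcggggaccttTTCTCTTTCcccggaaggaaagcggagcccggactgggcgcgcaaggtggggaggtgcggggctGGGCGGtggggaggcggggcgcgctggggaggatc
Itga11: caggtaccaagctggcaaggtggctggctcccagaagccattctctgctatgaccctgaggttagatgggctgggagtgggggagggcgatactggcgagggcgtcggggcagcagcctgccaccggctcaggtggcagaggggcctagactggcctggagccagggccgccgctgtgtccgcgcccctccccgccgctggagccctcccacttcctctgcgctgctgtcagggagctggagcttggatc
Lamb1: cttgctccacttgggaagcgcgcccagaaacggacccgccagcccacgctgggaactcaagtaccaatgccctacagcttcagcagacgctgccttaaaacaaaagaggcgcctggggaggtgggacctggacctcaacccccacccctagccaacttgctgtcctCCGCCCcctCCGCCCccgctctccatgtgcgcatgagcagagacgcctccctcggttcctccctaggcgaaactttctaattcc
Lamb2: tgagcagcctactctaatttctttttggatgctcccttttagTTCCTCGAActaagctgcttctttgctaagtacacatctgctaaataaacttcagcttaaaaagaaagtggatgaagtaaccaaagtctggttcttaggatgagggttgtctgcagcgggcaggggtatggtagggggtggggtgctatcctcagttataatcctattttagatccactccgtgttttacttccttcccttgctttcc

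The windows were searched on both strands for AP-1 (TGANTCA), TEAD (GGAATG), the GC box (GGGCGG), STAT (TTCNNNGAA) and IRF (GAAANNGAA), and no matches overlapped within the 6 sequences shown. *Itgb7* and *Itga11* held no match in their windows. *Itgav* held 1 IRF match, *Itga3* held 3 GC boxes and 1 IRF match, *Lamb1* held 2 GC boxes and *Lamb2* held 1 STAT match. Of the 55 members, 37 had a promoter in the RefSeq table, with 42 promoters. An IRF match was found in 11.9% of these, against 7.13% of all 32851 promoters, and a GC box in 45.2% against 32.7%. AP-1 matches were in 4.76% of member promoters and 6.75% of all, STAT matches in 4.76% and 7.02%, and TEAD matches in 14.3% and 12.6%. Among the 9 promoters of members that rose, 2 had an IRF match and none had an AP-1, TEAD or STAT match. Among the 15 promoters of members that fell, 2 had an IRF match, 1 an AP-1, 3 a TEAD and 2 a STAT match. Of the 18 promoters of members not called or not tested, 1 had an IRF match. These counts are descriptions of letters and say nothing of binding.

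Among integrin beta genes, *Itgb7* changed most. It encodes the beta7 chain, which is best known on lymphocytes as the partner of the alpha4 and alphaE chains, and it lies at chr15:102215995-102231944 on the minus strand. *Itgb7* was at 72.0, 82.9 and 79.9 CPM in the Scr libraries and at 356, 357 and 310 CPM in the Yme1l siRNA libraries. All 3 Yme1l siRNA libraries were far above all 3 Scr libraries, and the spread within groups was small. The difference was a log2 fold change of 2.12 (SE 0.09, adjusted p = 3.26e-06, edgeR's quasi-likelihood test), a 4.36-fold rise. The known partners of the beta7 chain were scarce: *Itga4* had 3, 7 and 4 counts with Scr and 22, 11 and 20 counts with Yme1l siRNA, and *Itgae* had 2 to 11 counts in any library. The fitted log2 fold change of *Itga4* was 1.79 (SE 0.48), and its highest library was at 0.496 CPM. An exon of *Itga4* overlaps one on the other strand. The study used a stranded library kit, but the use of strand in counting is not stated. Whether reads of the other strand were kept out of the *Itga4* counts is therefore not known.

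*Itgb2*, which encodes the beta2 chain of leukocyte integrins, also rose. Its levels were 3.28, 3.63 and 3.91 CPM with Scr and 11.3, 11.3 and 12.4 CPM with Yme1l siRNA. The groups did not overlap, and the log2 fold change was 1.69 (SE 0.12, adjusted p = 1.78e-05). The alpha chains that pair with beta2 on leukocytes were near the limit of detection: *Itgal* had 0 to 13 counts in any library, *Itgam* 0 to 3 and *Itgad* 0 to 3. *Itgax*, the alpha chain of dendritic cells, had the opposite order, with 41, 37 and 13 counts with Scr and 7, 10 and 12 with Yme1l siRNA. The highest Yme1l siRNA count of *Itgax* was just under the lowest Scr count, and the fitted log2 fold change was -1.74 (SE 0.49). Of the leukocyte markers, *Ptprc* and *Adgre1* had 3 and 0 counts in all libraries, whereas *Csf1r* was detected and rose, as given above.

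The beta chains typical of fibroblasts did not rise. *Itgb1*, which pairs with most alpha chains of the collagen, laminin and fibronectin receptors, was the beta gene with the highest level per length. It was at 974, 987 and 996 CPM with Scr and at 873, 835 and 803 CPM with Yme1l siRNA. The groups did not overlap, and the small fall had a log2 fold change of -0.24 (SE 0.07, adjusted p = 0.0197), a call lost without Scr replicate 1 (adjusted p = 0.0532) or Scr replicate 2 (adjusted p = 0.0589). *Itgb5*, which joins alphav in a vitronectin receptor, was at 425, 433 and 412 CPM with Scr and at 296, 301 and 241 CPM with Yme1l siRNA. All Yme1l siRNA libraries of *Itgb5* were lower, at a log2 fold change of -0.60 (SE 0.09, adjusted p = 0.000731). *Itgb3*, the other main partner of alphav, was at 18.9, 18.3 and 21.5 CPM with Scr and 13.3, 13.4 and 9.56 CPM with Yme1l siRNA. It fell without overlap of the groups, at a log2 fold change of -0.69 (SE 0.14, adjusted p = 0.00317). *Itgb8*, a partner of alphav that activates TGF-beta, was not called at -0.17.

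*Itgb4*, the beta chain of hemidesmosomes, was barely present, with 42, 22 and 33 counts with Scr and 14, 20 and 20 with Yme1l siRNA. The groups were separated by only a few reads, with a log2 fold change of -0.92 (SE 0.30, adjusted p = 0.0272). This call was lost without Scr replicate 1, Scr replicate 3 or Yme1l siRNA replicate 1 (adjusted p 0.0600 to 0.112) and with DESeq2 (adjusted p = 0.0687). *Itgbl1*, a secreted protein with integrin-like EGF repeats, was at 8.08, 7.40 and 2.87 CPM with Scr and 3.65, 4.16 and 1.38 CPM with Yme1l siRNA. The groups overlapped through the low level in Scr replicate 3, and *Itgbl1* was not called (-0.99, SE 0.46, adjusted p = 0.0924), though it was without Scr replicate 3 (-1.34, adjusted p = 0.0229) and when all loci with a count were tested (adjusted p = 0.0248).

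**Figure D2:**
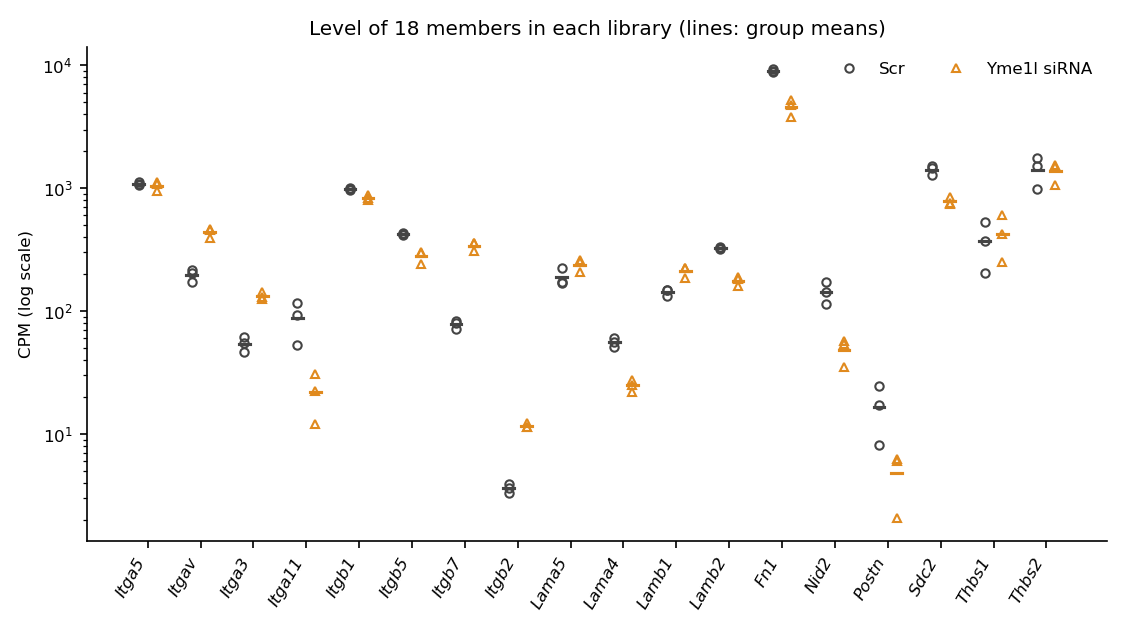
Level of 18 members in each library in CPM on a log scale, with open circles for Scr, triangles for Yme1l siRNA and lines for group means (n = 3). The groups are separate for *Itgb7*, *Itgb2*, *Itgav*, *Itga3* and *Lamb1*, which rose, and for *Fn1*, *Sdc2*, *Nid2*, *Lama4*, *Lamb2*, *Itgb5* and *Itga11*, which fell, while *Thbs1* and *Thbs2* spread widely within both groups.

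Among integrin alpha genes, the fibronectin receptor chain was not called while several others moved. *Itga5* had by far the highest level per length, at 220 ± 7.71 CPM per kb with Scr and 213 ± 19.0 CPM per kb with Yme1l siRNA (SD, n = 3). Its levels in the single libraries were 1129, 1073 and 1056 CPM with Scr and 1088, 1120 and 944 CPM with Yme1l siRNA. The groups overlapped, and *Itga5* was not called (log2 fold change -0.05, SE 0.09, adjusted p = 0.660). *Itgav*, the alphav chain that binds vitronectin, fibronectin and latent TGF-beta with several beta partners, was at 215, 205 and 172 CPM with Scr and at 463, 460 and 389 CPM with Yme1l siRNA. Each Yme1l siRNA library was above all Scr libraries, and the rise was 2.22-fold (log2 fold change 1.15, SE 0.11, adjusted p = 5.28e-05). Of the partners of alphav named above, *Itgb5* and *Itgb3* fell and *Itgb8* was not called. The level per kb of *Itgav* was 0.154 ± 0.0150 times that of *Itgb5* with Scr and 0.519 ± 0.0142 times with Yme1l siRNA. In an exact permutation test over libraries this ratio had p = 0.1, the smallest possible (adjusted p = 0.17 over 17 sums and ratios). That outcome was fixed by the single genes, which moved in opposite directions without overlap, and adds no support. An exon of *Itgav* overlaps an exon of a gene on the other strand.

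The laminin-binding alpha chains rose, apart from *Itga7*. *Itga3*, a receptor chain for laminins that hold the alpha5 or alpha3 chain, was at 55.2, 46.4 and 61.5 CPM with Scr and at 142, 130 and 125 CPM with Yme1l siRNA. The groups did not overlap, and *Itga3* rose 2.43-fold (log2 fold change 1.28, SE 0.11, adjusted p = 3.56e-05). *Itga6*, which with the beta1 or beta4 chain binds many laminins, was at 8.01, 7.54 and 11.2 CPM with Scr and 17.8, 21.1 and 15.6 CPM with Yme1l siRNA. It rose without overlap, at a log2 fold change of 1.02 (SE 0.17, adjusted p = 0.00113). *Itga7*, the laminin receptor chain of muscle, was at 118 to 143 CPM in all 6 libraries and was not called (0.04, adjusted p = 0.697). With this gene included, the summed level of the laminin-binding chains was 26.6 ± 1.53 CPM per kb with Scr and 41.7 ± 3.11 CPM per kb with Yme1l siRNA (exact permutation p = 0.1, adjusted p = 0.17).

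Collagen-binding alpha chains went in different directions. *Itga11*, the main receptor chain of mesenchymal cells for fibrillar collagen, lies at chr9:62677826-62783982. It was at 116, 92.5 and 53.1 CPM with Scr and at 31.0, 22.4 and 12.1 CPM with Yme1l siRNA. Levels differed by more than 2-fold within each group, but the groups did not overlap, and *Itga11* fell 3.99-fold (log2 fold change -1.99, SE 0.36, adjusted p = 0.00157). *Itga2*, which encodes the alpha chain of the platelet and epithelial collagen receptor, was at 3.72, 3.74 and 3.51 CPM with Scr and at 12.2, 14.95 and 8.09 CPM with Yme1l siRNA. It rose without overlap, by a log2 fold change of 1.68 (SE 0.21, adjusted p = 0.000256). *Itga1*, its neighbour on chromosome 13, was at 46.05 to 54.1 CPM in all libraries and was not called (0.06, adjusted p = 0.505), although its locus also joins *Pelo* and 1 further gene name, so that not all of its counts need be *Itga1*. *Itga10*, whose locus also joins other genes, was called at a small fall (-0.27, adjusted p = 0.0331) that was lost without Scr replicate 1, Scr replicate 2, Yme1l siRNA replicate 1 or Yme1l siRNA replicate 2 (adjusted p 0.0888 to 0.122). The summed level of the collagen-binding chains was 25.1 ± 6.68 CPM per kb with Scr and 12.7 ± 1.92 CPM per kb with Yme1l siRNA (exact permutation p = 0.1, adjusted p = 0.17).

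The remaining integrin alpha genes were at low levels. *Itga8*, an RGD-binding chain of smooth muscle and kidney mesenchyme, had 34, 25 and 35 counts with Scr and 4, 0 and 2 with Yme1l siRNA. All Yme1l siRNA libraries held fewer reads than any Scr library, and the fitted log2 fold change was -3.98 (SE 0.55), -4.87 without Yme1l siRNA replicate 1 and -3.41 without Yme1l siRNA replicate 2. *Itga9*, a receptor chain for tenascin-C and osteopontin, had 45, 43 and 15 counts with Scr and 3, 10 and 12 with Yme1l siRNA. The groups of *Itga9* did not overlap but came within a few counts of each other, at a fitted log2 fold change of -2.13 (SE 0.57). *Itga2b*, the alphaIIb chain of platelets, fell slightly (-0.38, adjusted p = 0.0152), a call lost without Scr replicate 1 (adjusted p = 0.0628).

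The shares of the main genes in the integrin RNA, apart from *Itga7*, did not overlap between the groups, whereas the summed levels did. *Itga7* made up 5.50% ± 0.460 of the alpha level with Scr and 5.33% ± 0.083 with Yme1l siRNA. All integrin alpha genes together were at 293 ± 15.2 CPM per kb with Scr and 310 ± 27.5 CPM per kb with Yme1l siRNA, and the beta genes, without *Itgbl1*, at 395 ± 4.65 and 414 ± 26.7 CPM per kb (exact permutation test over libraries, two-sided p = 0.4 for each, where the design allows no p under 0.1, so that equal sums are not shown). *Itga5* made up 75.2% ± 1.42 of the alpha level with Scr and 68.7% ± 0.614 with Yme1l siRNA. The share of *Itgav* was 6.27% ± 0.456 and 13.1% ± 0.154, that of *Itga3* 3.26% ± 0.550 and 7.49% ± 0.483, and that of *Itga11* 5.73% ± 1.84 and 1.35% ± 0.507. As classes, RGD-binding chains were at 82.3% and 82.4%, laminin-binding chains were at 9.10% and 13.5%, and collagen-binding chains at 8.49% and 4.09%. *Itgb1* was at 61.2% ± 0.608 and 49.6% ± 1.62, *Itgb5* at 30.2% ± 0.707 and 19.0% ± 1.12, and *Itgb7* at 7.16% ± 0.437 with Scr and 29.7% ± 0.556 with Yme1l siRNA (SD, n = 3). The libraries of the groups overlapped for *Itga7* (exact permutation p = 0.5) and were separate for each of the other genes named here. Each of those had an exact permutation p of 0.1, which is the smallest that 3 against 3 libraries can give (adjusted p = 0.134 over 43 shares). Shares of RNA say nothing of the amount of protein or of pairs at the surface.

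Laminin chains changed in each of their classes. Among beta chains, *Lamb2*, typical of muscle and mature vascular basement membranes, was the laminin gene with the highest level per length in Scr libraries, and it lies at chr9:108479736-108490530. *Lamb2* was at 333, 322 and 327 CPM with Scr and at 183, 188 and 158 CPM with Yme1l siRNA. It fell in all Yme1l siRNA libraries, at a log2 fold change of -0.89 (SE 0.08, adjusted p = 4.76e-05). *Lamb1*, the beta chain of most early basement membranes, lies at chr12:31265234-31329644 and rose, at a log2 fold change of 0.56 (adjusted p = 0.00110). *Lamb3*, the beta chain of the epidermal laminin, was called at a small fall (-0.36, adjusted p = 0.0172) that was lost without Scr replicate 1 (adjusted p = 0.0651) or Scr replicate 2 (adjusted p = 0.0578). The level per kb of *Lamb1* was 0.275, 0.281 and 0.250 times that of *Lamb2* in the Scr libraries and 0.752, 0.728 and 0.717 times in the Yme1l siRNA libraries. This ratio was nearly the same in all libraries of a group and did not overlap between groups (exact permutation p = 0.1, adjusted p = 0.17). Since *Lamb1* rose and *Lamb2* fell, each without overlap, this separation and its p were fixed by the single genes and add no support. The summed laminin beta level was 82.0 ± 2.80 CPM per kb with Scr and 61.0 ± 5.77 CPM per kb with Yme1l siRNA (exact permutation p = 0.1, adjusted p = 0.17).

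The laminin alpha chains carry the sites that bind integrins. *Lama4*, the alpha chain of endothelial and mesenchymal laminins, was at 60.9, 56.0 and 50.7 CPM with Scr and at 24.9, 27.4 and 22.1 CPM with Yme1l siRNA. The groups were well apart, and *Lama4* fell 2.25-fold (log2 fold change -1.17, SE 0.10, adjusted p = 3.81e-05). *Lama5*, the most widespread alpha chain of adult tissues, was called higher at 0.35 (adjusted p = 0.0424), but its groups overlapped through Scr replicate 3 and Yme1l siRNA replicate 3, and the call was lost when Scr replicate 1, Scr replicate 2, Yme1l siRNA replicate 1 or Yme1l siRNA replicate 2 was left out (adjusted p 0.108 to 0.149). *Lama5* thus stood at 77.6% ± 4.04 of the laminin alpha level with Scr and 90.6% ± 0.195 with Yme1l siRNA, and *Lama4* at 22.2% ± 4.05 and 8.88% ± 0.286 (exact permutation p = 0.1 for each, adjusted p = 0.134). *Lama3*, the epidermal alpha chain, had 10, 8 and 7 counts with Scr and 43, 45 and 26 with Yme1l siRNA. The Yme1l siRNA libraries held more reads than any Scr library, at a fitted log2 fold change of 2.07 (SE 0.33). *Lama2*, the alpha chain of muscle, had 9, 10 and 16 counts with Scr and 40, 27 and 17 with Yme1l siRNA. The highest Scr library and the lowest Yme1l siRNA library of *Lama2* were 1 count apart, and its fitted log2 fold change was 1.15 (SE 0.39). Exons of *Lama2*, *Lama3* and *Lamc3* overlap exons of genes on the other strand.

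Of the gamma chains, *Lamc1*, which is shared by most laminins, was at 239, 242 and 272 CPM with Scr and at 317, 324 and 258 CPM with Yme1l siRNA. The groups overlapped through Yme1l siRNA replicate 3, and *Lamc1* was not called (0.25, SE 0.10, adjusted p = 0.0600), but it was without that library (adjusted p = 0.00647), without Scr replicate 3 (adjusted p = 0.0464) and with DESeq2 (adjusted p = 0.0288). *Lamc3* had 17, 18 and 26 counts with Scr and 77, 71 and 57 with Yme1l siRNA. The groups were well separated at this low level, with a log2 fold change of 1.64 (SE 0.25, adjusted p = 0.000699).

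**Figure D3:**
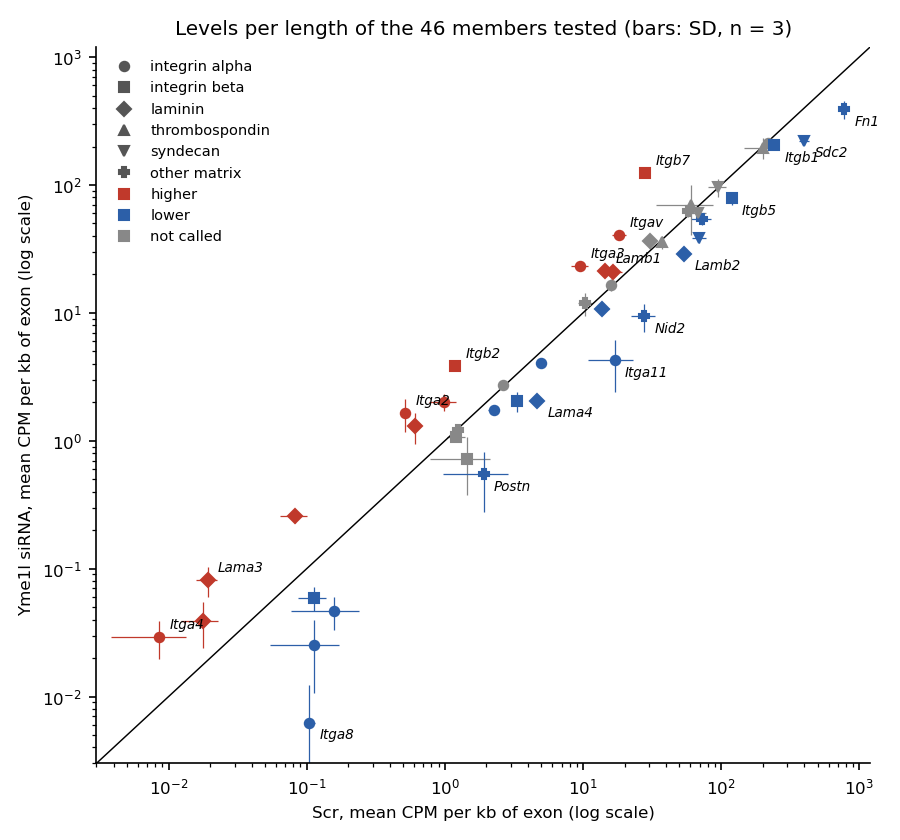
Mean level per length of the 46 members tested, with Scr on the x axis and Yme1l siRNA on the y axis, both in CPM per kb of exon on log scales, with bars for the SD (n = 3) and the line of equal levels. *Itgb7* stands farthest above the line among members over 10 CPM per kb, *Fn1* has the highest level in both groups, and *Itga8*, *Itga4* and *Lama3* lie at low levels on either side, with the lower bar of *Itga8* running past the axis.

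Among the other matrix proteins, fibronectin, periostin and *Nid2* RNA fell most. *Fn1*, whose product is the main ligand of the alpha5 and beta1 integrin and the scaffold on which other matrix proteins assemble, lies at chr1:71585520-71653200 and had the highest level per length of all members. It was at 9021, 9251 and 8889 CPM with Scr and at 5248, 4760 and 3772 CPM with Yme1l siRNA. No Yme1l siRNA library came near the Scr libraries, and *Fn1* fell 1.97-fold (log2 fold change -0.98, SE 0.12, adjusted p = 0.000249). *Itga5* was not called, and the level per kb of *Fn1* was 3.52 ± 0.136 times that of *Itga5* with Scr and 1.84 ± 0.179 times with Yme1l siRNA (exact permutation p = 0.1, adjusted p = 0.17). An exon of *Fn1* overlaps one of *Apol7d* on the other strand.

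*Postn*, which encodes periostin, a ligand of alphav integrins in collagen-rich tissue, was at 24.4, 17.3 and 8.15 CPM with Scr and at 6.04, 6.21 and 2.06 CPM with Yme1l siRNA. The groups did not overlap, but within each group the highest library was about 3-fold above the lowest (2.997-fold with Scr and 3.009-fold with Yme1l siRNA). The log2 fold change of *Postn* was -1.80 (SE 0.46, adjusted p = 0.00975). *Nid2*, one of the nidogens that bridge laminin and collagen IV, was at 172, 144 and 114 CPM with Scr and at 56.6, 54.1 and 35.0 CPM with Yme1l siRNA. It fell 2.96-fold without overlap (log2 fold change -1.56, SE 0.20, adjusted p = 0.000280). *Nid1*, the more abundant nidogen, was not called (0.13, adjusted p = 0.251), except without Yme1l siRNA replicate 3 (0.20, adjusted p = 0.0422). The level per kb of *Nid1* was 2.15 ± 0.550 times that of *Nid2* with Scr and 6.88 ± 1.17 times with Yme1l siRNA (exact permutation p = 0.1, adjusted p = 0.17).

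*Hspg2*, which encodes the basement membrane proteoglycan perlecan, was at 914, 960 and 1236 CPM with Scr and at 806, 684 and 855 CPM with Yme1l siRNA. The highest Yme1l siRNA library was just below the lowest Scr library, and the log2 fold change was -0.41 (SE 0.13, adjusted p = 0.0273). This call was lost without Scr replicate 3, Yme1l siRNA replicate 1 or Yme1l siRNA replicate 2 (adjusted p 0.0622 to 0.0847). The tenascins *Tnc* and *Tnxb*, glycoproteins that modulate cell attachment, were not called at log2 fold changes of 0.19 and -0.04, and *Tnc* was called only without Yme1l siRNA replicate 3 (0.32, adjusted p = 0.0355).

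Of the syndecans, *Sdc2* and *Sdc3* fell, and *Sdc1* and *Sdc4* were not called. *Sdc2*, the main syndecan of mesenchymal cells, was at 1507, 1465 and 1275 CPM with Scr and at 850, 752 and 745 CPM with Yme1l siRNA. All Yme1l siRNA libraries were lower, and the log2 fold change was -0.86 (SE 0.10, adjusted p = 0.000127). *Sdc3*, first described in the nervous system, was at 467, 411 and 372 CPM with Scr and at 247, 240 and 208 CPM with Yme1l siRNA. It fell without overlap, at a log2 fold change of -0.84 (SE 0.10, adjusted p = 0.000211). *Sdc4*, the syndecan of focal adhesions, was at 257, 266 and 201 CPM with Scr and at 242, 286 and 205 CPM with Yme1l siRNA. Its groups lay within the same range (log2 fold change 0.02, SE 0.14, adjusted p = 0.920). *Sdc1* was at -0.17 (adjusted p = 0.208) and was called without Scr replicate 3 (-0.29, adjusted p = 0.0142).

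The thrombospondins, which bind integrins, CD47 and syndecans and regulate TGF-beta activation and angiogenesis, were not called in the comparison of the groups. *Thbs2* was at 1746, 1516 and 988 CPM with Scr and at 1549, 1499 and 1070 CPM with Yme1l siRNA. *Thbs1* was at 534, 371 and 203 CPM with Scr and at 603, 426 and 249 CPM with Yme1l siRNA. In both genes the groups overlapped and replicate 3 was the lowest library of each group. Replicate 3 was also lowest in both groups for *Itga11*, *Postn*, *Nid2*, *Itgbl1* and many other members. Among these were *Itga5*, *Itgav*, *Itgb5*, *Fn1*, *Lamb1* and every syndecan. It was not so for all members, since *Itga3*, *Lama5* and *Hspg2* were highest in replicate 3 among the Scr libraries. The log2 fold changes were -0.05 (SE 0.21, adjusted p = 0.868) for *Thbs2* and 0.20 (SE 0.37, adjusted p = 0.660) for *Thbs1*. *Thbs3* was at -0.07 (adjusted p = 0.518).

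The genes that act with these members were taken from lists of adhesion complex proteins, other matrix receptors and other adhesive matrix proteins. Of 37 adhesion complex loci tested, 7 rose and 16 fell, with a median log2 fold change of -0.16, and 1 changed by at least 2-fold. The smallest adjusted p values belonged to *Tgfb1i1*, the paxillin relative Hic-5 (-1.03, adjusted p = 1.16e-05), to *Tns3*, a tensin (0.97, adjusted p = 2.32e-05), and, with equal p, to *Bcar1*, the scaffold p130Cas (0.83, adjusted p = 4.39e-05), and *Parva*, a parvin that binds integrin-linked kinase (-0.94, adjusted p = 4.39e-05). The talin gene *Tln1* and the vinculin gene *Vcl* were not called at -0.15 and -0.16. Integrin-linked kinase (*Ilk*) fell, as did *Rsu1*, at log2 fold changes of -0.45 (adjusted p = 0.000446) and -0.81 (adjusted p = 0.000110). These 4 genes are named after their values were seen.

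Of 18 matrix receptors outside the integrin family, 8 rose and 3 fell, with a median log2 fold change of 0.24. The number that rose was 5 without Scr replicate 2. *Cd44*, the hyaluronan receptor, rose (1.13, adjusted p = 4.29e-05), as did *Plaur*, the urokinase receptor that binds vitronectin (1.07, adjusted p = 0.000118), *Mcam*, a receptor for laminin with the alpha4 chain (1.60, adjusted p = 0.000227), and *Rpsa*, a ribosomal protein also described as a laminin receptor (0.88, adjusted p = 0.000227). Of 32 other adhesive matrix genes tested, 8 rose and 14 fell, with a median of -0.34. A change of at least 2-fold was called for 4 that rose and 10 that fell, against 1186 and 1055 of all 14499 loci tested. *Smoc1* (-3.14) and *Tgfbi* (-2.40), both with an adjusted p of 3.26e-06, and *Edil3*, an RGD protein that binds alphav integrins (-1.86, adjusted p = 1.19e-05), were the most firmly lower. Against this direction, the integrin ligands *Ctgf* (2.24, adjusted p = 0.000176) and *Cyr61* (2.16, adjusted p = 4.21e-05) rose, and both are named here after their values were seen. In all 3 lists the share of called loci, between 61.1% and 68.8%, was close to or a little above the 58.0% of all loci.

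Of the 55 members, 17 have exons that overlap an exon of a gene on the other strand, among them *Itga4*, *Itga8*, *Itgav*, *Itgb4*, *Nid2* and *Sdc3* besides those mentioned, and 2 share a locus with other genes. Without these, 8 of 28 members tested rose and 13 fell, with a median log2 fold change of -0.20. Of all loci tested, 28.4% rose and 29.6% fell, with a median of 0.01.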

How the data were processed

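RNA-Seq of 6 libraries, 3 per siRNA, was analysed from the table of raw counts per locus that the authors deposited without normalization. According to the study's methods and the submitters' processing notes, reads were mapped to GRCm38 with HISAT2 2.0.4, assembled with StringTie 1.3.3 and compared with Cufflinks and Cuffdiff 2.2.1. The program that made the counts, and whether it used strand, is not given in the sources used here. The second deposited table holds the authors' own comparison (FPKM per group, log2 fold changes, test statistics, p and q values) and was not used. Samples were grouped by the siRNA in the labels.

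The 51499 loci, of which 635 join several gene names, were filtered with filterByExpr (minimum 10 counts, 15 in total), which left 14499. Groups were compared with the quasi-likelihood test of edgeR 4.0.16 in R 4.3.3, with TMM factors and no covariate, and p was adjusted by the Benjamini-Hochberg method over all loci tested, with a threshold of 0.05. The biological coefficient of variation was 0.131. The standard error is the log2 fold change divided by the square root of F. Depth was 37260605 to 45205207 counts. Pairs of replicates differed beyond counting noise (chi-square per degree of freedom 10.4 to 76.0), so each library was counted once. The fit was tested on simulated counts, where DESeq2 called more unchanged loci than edgeR.

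Level per kb is CPM divided by the length of the union of GENCODE M21 exons, by symbol for all 55 members. Shares and ratios were compared by exact permutation over libraries (43 shares, 17 sums and ratios), with scipy 1.17.1. Promoters came from RefSeq. Values per library are given for members with an adjusted p under 0.05 and an absolute log2 fold change of at least 0.58, and for the 2 members of each family with the highest level per kb. Members over the count limit in 1 group only are given with no p. Smaller changes are given by fold change and adjusted p, and companion lists by counts and the 3 smallest adjusted p. Members and lists were chosen with earlier results of these data known. Alternatives were DESeq2 1.42.0, limma-voom (limma 3.58.1), other factors and filters, a threshold of 0.01, a replicate block, leaving out each library and the longest transcript as gene length. The values of 1 member and the name of 1 gene at a joined locus are not reported here.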

Additional observations from a re-analysis of the deposited data

How the results depend on the processing

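No called member changed direction under any alternative, while the uncalled *Itga5*, *Itga7*, *Tnxb*, *Sdc4*, *Thbs1*, *Thbs2* and *Thbs3* changed sign when a library was left out. In the alternative fits at a threshold of 0.05, 30 of the 46 members tested kept their call wherever they were fitted, 10 lost it at least once and 6 gained one, though only 38 were fitted with a minimum mean of 50 counts. Between 11 and 16 members rose and between 13 and 19 fell when each library was left out in turn, with a median log2 fold change of -0.13 to 0.02. Of the 14705 to 14836 loci tested in these fits, 3451 to 4133 rose and 3616 to 4312 fell. At a threshold of 0.01, 10 of the 46 members tested rose and 11 fell, against 2949 and 3225 of all 14499 loci tested. At that threshold, 5 of 18 matrix receptors outside the integrin family rose. The number of those receptors that rose was 5 to 10 when libraries were left out. Without loci that join genes or overlap one on the other strand, an alternative chosen after seeing the data, 8 of 28 members tested rose and 13 fell. With the longest transcript as length, the share of *Itgav* differed by 8.25 percentage points in place of 6.86, that of *Lama4* by -19.9 in place of -13.3 and that of *Lamb1* by 19.9 in place of 17.2. Replicates with the same number correlated at 0.04, 0.12 and 0.19 in their deviations from the group means, so the numbers do not establish pairing. With the replicate number as a block, 12 members rose and 20 fell, against 4227 and 4460 of all 14499 loci tested. *Itgbl1* (-1.01, adjusted p = 0.000944) and *Thbs1* (0.22, adjusted p = 0.0219) gained a call. *Lama2* and *Lama5* lost theirs (adjusted p = 0.0518 for *Lama5*). Depth limits the members with under 50 counts per library, whose fold changes rest on few reads, and 3 libraries per group cannot give an exact permutation p under 0.1.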
